A study of Mus musculus with 4 samples.

Results

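The 10 genes described here encode the MYC, MAX and MXD network of transcription factors: *Myc*, *Mycn*, *Max*, *Mxd1*, *Mxd3*, *Mxd4*, *Mxi1*, *Mnt*, *Mga* and *Mlx*. They were chosen by name, as the rows of the expression table that carry these symbols, and make up 10 of the 19354 genes listed. All 10 were expressed well enough to be tested, with about 357 to 4807 reads per gene in a library. In hematopoietic stem cells (HSCs) that had lost *Id2*, none of them passed the test across all genes with 2 libraries per genotype. For 5 of the 10, against 34.8% of all genes tested, the libraries did not overlap between genotypes: *Myc*, *Mycn* and *Mxd4* had higher values and *Mxd1* and *Mga* lower values in both *Id2*Δ/Δ libraries.

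The proteins of this network share a basic helix-loop-helix leucine zipper and bind DNA as pairs. MYC and MYCN pair with MAX, bind the E-box CACGTG and raise transcription by bringing histone acetyltransferases and elongation factors to the gene. The MXD proteins (MXD1, MXD3, MXD4 and MXI1) and MNT pair with the same MAX, bind the same sites and bring the SIN3 and histone deacetylase corepressor instead. MGA also pairs with MAX and is the scaffold of a variant Polycomb complex, PRC1.6. MLX is a relative of MAX that pairs with the glucose-sensing MondoA and with some MXD proteins. In the bone marrow MYC is known for moving stem cells out of self-renewal and into differentiation and growth, MYCN overlaps with it in the stem cells, and MXD1 is known to accumulate as granulocytes mature and stop dividing.

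RNA-Seq was performed on HSCs sorted from mouse bone marrow as LSK FLT3-CD48-CD150+ cells (lineage-negative, Sca1+ and c-Kit+), 2 libraries from *Mx1-Cre*; *Id2*+/+ mice and 2 from *Mx1-Cre*; *Id2*fl/fl mice. ID2 is an inhibitor of helix-loop-helix factors of the E protein family that cannot itself bind DNA. Both genotypes carried the Cre transgene and both received polyinosinic:polycytidylic acid (pIpC), an inducer of interferon that switches on the interferon-responsive *Mx1* promoter and so deletes the floxed *Id2* (*Id2*Δ/Δ) in HSCs and in any other cell that answers interferon. The mice were 8 to 16 weeks old, cells were taken 2 weeks after pIpC, and 14 *Id2*+/+ and 15 *Id2*Δ/Δ mice were pooled over 2 experiments. Since it is not stated whether the libraries of a genotype came from separate pools, p-values measure the spread between these libraries only, which may be technical.

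The values were log2 CPM (read counts scaled to a common library total) that the authors had quantile-normalized, at estimated depths of 14500000 to 18200000 reads. *Id2* itself was at 2.68 and 2.63 log2 CPM in the *Id2*+/+ libraries, about 93 and 98 reads, and had 0 reads in both *Id2*Δ/Δ libraries, where it was at least 37.5-fold lower (against 3 reads per library, the limit a count of 0 allows). The 14 HSC markers lay between 3.09 (*Hoxb5*) and 11.08 (*Kit*) log2 CPM in the 4 libraries, with 6 higher and 8 lower after *Id2* loss. *Slamf1*, which encodes the sorted CD150, was at 5.78 and 5.70 against 6.08 and 5.92, while *Kit* was at 11.08 and 10.93 against 10.19 and 10.55. *Cd48*, excluded in the sort, was between 1.40 and 3.04. *Flt3* RNA, whose protein was also excluded, was at 5.47 to 5.63. The *Id2*Δ/Δ libraries resembled each other less (Pearson's r across genes 0.942) than the *Id2*+/+ libraries did (0.972), and pairs across genotypes lay at 0.950 to 0.964. The difference between genotypes also ran with transcript length: its median was 0.09 on the log2 scale in genes with transcripts of up to 2144 bases and -0.06 in genes with transcripts of over 3874 bases. In bulk RNA, fewer cells of a type and less RNA per cell cannot be told apart.

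The network's own binding site can be read in its promoters. In RefSeq promoters of GRCm38.p6, 250 bases before to 50 after the start of the gene, the hexamer CACGTG (the same on both strands) stood in 4 of the 9 members with an entry, or 44.4%, against 11.7% of the 10265 tested genes with an entry and 8.09% of all 27025 promoters. The 4 were *Max*, *Mlx*, *Mnt* and *Mxd4*, the common partner, its relative and a pair of repressors. Their sites are shown on the strand that RefSeq gives for the gene (matched to transcript sequence for *Mlx*, *Mnt* and *Mxd4*, but not for *Max*) with the E-box in capitals and 12 bases on each side, and below them a run of the promoter of *Cdk4*, a classical MYC target that holds 4 E-boxes. A match is a description of the sequence and not evidence of binding in these cells.
Max, chr12:76962234-76962263 (-): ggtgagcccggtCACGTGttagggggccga
Mlx, chr11:101087238-101087267 (+): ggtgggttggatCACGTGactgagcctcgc
Mnt, chr11:74830789-74830818 (+): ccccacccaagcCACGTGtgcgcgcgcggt
Mxd4, chr5:34187912-34187941 (-): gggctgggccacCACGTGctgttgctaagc
Cdk4, chr10:127063351-127063534 (+): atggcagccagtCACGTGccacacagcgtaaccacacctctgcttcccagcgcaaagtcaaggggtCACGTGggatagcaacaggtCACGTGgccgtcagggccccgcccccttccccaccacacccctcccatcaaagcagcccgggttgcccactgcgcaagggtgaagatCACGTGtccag
The E-box of *Max* began 3 bases before the RefSeq start, that of *Mlx* 40, that of *Mnt* 123 and that of *Mxd4* 219 bases before it. *Mycn*, *Mxd1*, *Mxd3*, *Mxi1* and *Mga* had no CACGTG in these windows.

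**Figure D1:**
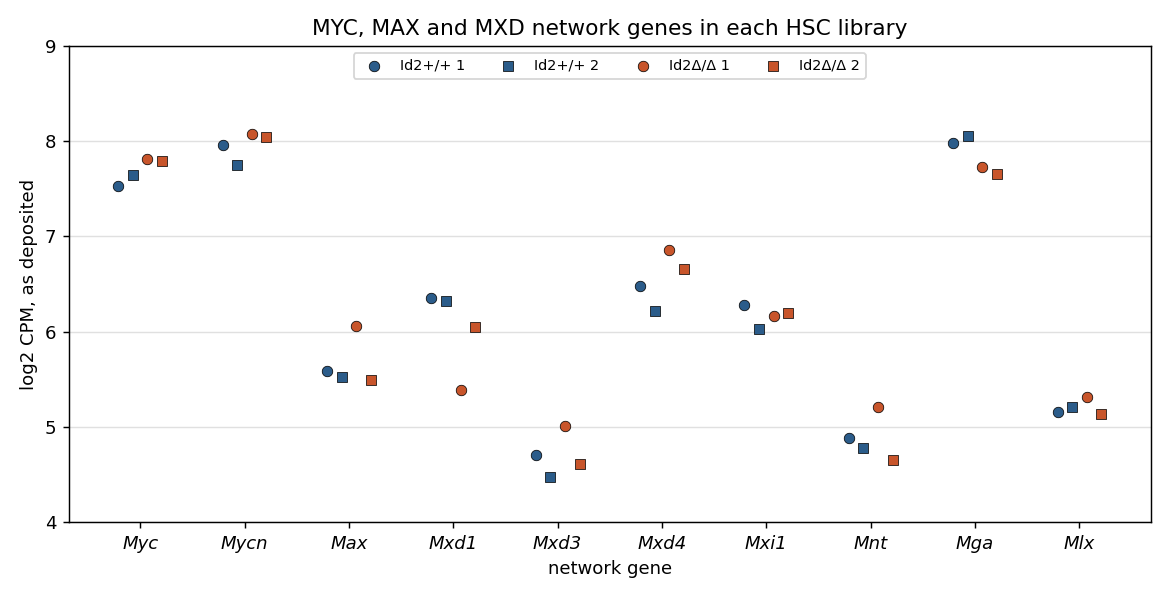
Level of each network gene (horizontal axis) in each of the 4 HSC libraries, in log2 CPM as deposited (vertical axis, starting at 4); blue points are Id2+/+ and orange points Id2Δ/Δ libraries, with circles for replicate 1 and squares for replicate 2. The orange points lie above both blue points for Myc, Mycn and Mxd4 and below both for Mxd1 and Mga, and they are far apart from each other for Max, Mxd1, Mxd3 and Mnt.

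*Myc* and *Mycn*, the activating factors, were both abundant and both somewhat higher in *Id2*Δ/Δ HSCs. *Myc* (ENSMUSG00000022346.15, chr15:61985391-61990374, + strand; gene coordinates here and below are those of GRCm38, matched by identifier) was at 7.53 and 7.64 log2 CPM in *Id2*+/+ HSCs and reached 7.81 and 7.80 after *Id2* loss. Its mean CPM was 1.16-fold higher in *Id2*Δ/Δ HSCs (95% interval 0.969 to 1.39; log2 difference 0.22, SE 0.11; limma, unadjusted p = 0.0922, Benjamini-Hochberg adjusted p = 0.910). *Mycn* (ENSMUSG00000037169.14, chr12:12936093-12941914, - strand) was at 7.96 and 7.75 against 8.08 and 8.04. Both *Id2*Δ/Δ libraries stood above both *Id2*+/+ libraries for each of the 2 genes, although for *Mycn* the *Id2*+/+ libraries lay farther from each other than the nearest libraries of the 2 genotypes did. The fold for *Mycn* was 1.15 (95% interval 0.951 to 1.39, limma, unadjusted p = 0.126, adjusted p = 0.910).

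Divided by the length of the longest transcript, which allows genes to be compared, *Myc* stood at 79.2 and 85.5 and *Mycn* at 93.0 and 80.6 CPM per kb in the *Id2*+/+ libraries. The 2 overlapped and could not be ordered. *Mycn* made up 48.5% to 54.0% of their sum in the 4 libraries, so the HSCs held about as much *Mycn* as *Myc* RNA in both genotypes. The sum was 172 and 166 CPM per kb in *Id2*+/+ and 197 and 193 in *Id2*Δ/Δ HSCs, a log2 difference of 0.21. Such sums are given without a test, because with 2 libraries per genotype the smallest two-sided p of an exact permutation test is 0.333.

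*Max*, the common partner, ranked next per kb of the longest transcript in *Id2*+/+ HSCs. *Max* (ENSMUSG00000059436.12, chr12:76937269-76962201, - strand) was at 5.59 and 5.53 log2 CPM in *Id2*+/+, and at 6.06 and 5.50 in *Id2*Δ/Δ libraries. The *Id2*Δ/Δ libraries thus lay on either side of the *Id2*+/+ values, 0.57 apart, and the log2 difference of 0.22 (SE 0.21, limma, adjusted p = 0.915) rested on replicate 1: without it the difference was -0.06, and without replicate 2 it was 0.51. On the CPM per kb scale *Max* was at 24.8, 23.7, 34.4 and 23.2, so the summed RNA of *Myc* and *Mycn* exceeded that of their common partner in every library. Gm47218, not analysed here, overlaps *Max* on its own strand.

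Of the MXD repressors, *Mxd1* was lower and *Mxd4* higher in *Id2*Δ/Δ HSCs, while *Mxd3* and *Mxi1* overlapped between genotypes. *Mxd1* (ENSMUSG00000001156.9, chr6:86647042-86669161, - strand), the founding MXD repressor, was at 6.35 and 6.33 log2 CPM in *Id2*+/+, but at 5.39 and 6.05 in *Id2*Δ/Δ libraries. The 2 *Id2*+/+ libraries were nearly equal and both above, and replicate 1 of *Id2*Δ/Δ was the low one. The mean was 1.54-fold higher in *Id2*+/+ than in *Id2*Δ/Δ HSCs (log2 difference -0.62, SE 0.22, limma, unadjusted p = 0.0240, adjusted p = 0.910). The difference shrank to -0.29 without *Id2*Δ/Δ replicate 1 and grew to -0.95 without *Id2*Δ/Δ replicate 2. It was -0.59 once the values were corrected for transcript length.

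Since granulocytes are known to be rich in *Mxd1*, the 10 neutrophil markers tested are given beside it, 4 of them higher and 6 lower after *Id2* loss. Their summed level was 308 and 194 CPM in *Id2*+/+ and 288 and 160 CPM in *Id2*Δ/Δ libraries, so it was higher in replicate 1 of both genotypes. A large part of that sum came from *Prtn3*, at 7.08, 6.88, 7.23 and 6.84 log2 CPM. The 4 higher markers were *Elane*, *Mpo*, *Ms4a3* and *Prtn3*, with log2 differences of 1.25, 0.65, 0.59 and 0.06, and the median of the 10 was -0.50. Among the 6 lower ones, *S100a8* was at 5.18, 3.79, 4.75 and 2.04 log2 CPM. *Retnlg*, too low to be tested and so not among the 10, was at the lowest value of the column in both *Id2*Δ/Δ libraries. In the same order of libraries *Mxd1* was at 6.35, 6.33, 5.39 and 6.05 log2 CPM. Of the 8 megakaryocyte markers 7 had higher means, with sums of 576 and 629 against 660 and 722 CPM, and of the 14 HSC markers 8 were lower, with sums of 6005 and 5963 against 4361 and 5145 CPM. Of the 6 monocyte markers 3 were higher and 3 lower. The part of these cell types in the *Mxd1* result was not tested. *Mxd1* shares 2364 bases on its own strand with the low Gm44292 (1.44 to 2.39 log2 CPM).

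*Mxd4* (ENSMUSG00000037235.13, chr5:34173883-34187720, - strand), a repressor linked to cells that leave the cycle, was at 6.48 and 6.21 log2 CPM in *Id2*+/+ and at 6.86 and 6.66 in *Id2*Δ/Δ libraries, with no overlap. It was 1.33-fold higher in *Id2*Δ/Δ HSCs (95% interval 1.04 to 1.70; log2 difference 0.41, SE 0.15; limma, unadjusted p = 0.0299, adjusted p = 0.910). Leaving out 1 library at a time gave log2 differences of 0.28 to 0.54. The *Id2*+/+ libraries lay farther from each other than the nearest libraries of the genotypes did. An antisense gene, Gm42846, shares 1001 bases with *Mxd4* and stood at 4.28, 4.22, 4.84 and 4.48 log2 CPM, also higher in both *Id2*Δ/Δ libraries. All overlaps given here are of whole gene spans, introns included. Since it is not known whether exons are shared or whether reads were counted by strand, it cannot be said whether their signals mix there.

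*Mxd3* (ENSMUSG00000021485.13, chr13:55325168-55329823, - strand), which is known to peak in S phase, was the least abundant of the MXD genes by CPM. It was at 4.70 and 4.48 log2 CPM against 5.01 and 4.61 (log2 difference 0.22, SE 0.22, limma, adjusted p = 0.916). *Mxi1* (ENSMUSG00000025025.13, chr19:53310518-53375810, + strand), or MXD2, had the smallest difference of the 10 genes, at 6.28 and 6.03 against 6.17 and 6.20. Its log2 difference was 0.02 (95% interval -0.33 to 0.37). *Mxd3* shares 105 bases with *Prelid1* and *Mxi1* 201 bases with Gm10197, both on the opposite strand. *Mxi1* also shares 5146 bases on the opposite strand with AC133451.2, not analysed here.

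*Mxd1* and *Mxd4* differed in opposite directions, and the summed MXD RNA overlapped between genotypes. The summed level of the 4 genes was 67.2 and 59.0 CPM per kb in *Id2*+/+ and 66.9 and 64.6 in *Id2*Δ/Δ libraries, which overlap, with a log2 difference of 0.06. *Mxd1* supplied 26.0% and 29.1% of that sum in *Id2*+/+, and 13.5% and 21.9% in *Id2*Δ/Δ HSCs. *Mxd4* supplied 28.7% and 27.2%, and then 37.5% and 33.8%. The shares of *Mxd3* (22.2% and 21.7%, then 27.7% and 21.7%) and of *Mxi1* (21.3% to 23.0%) overlapped between genotypes. Those of *Mxd1* and *Mxd4* did not, which restates their own values.

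**Figure D2:**
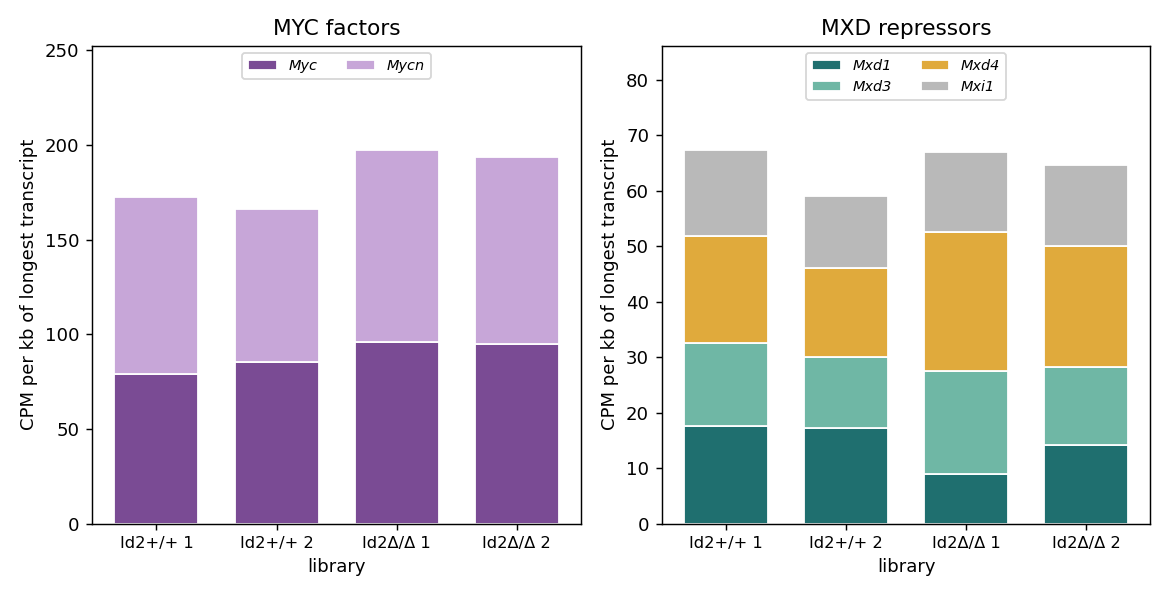
RNA of the activating MYC factors (left) and of the MXD repressors (right) in each library (horizontal axis), in CPM per kb of the longest transcript (vertical axes, both from 0 but on different scales); each coloured segment is 1 gene and there are no error bars, as each bar is 1 library. The MYC sum is 172 and 166 in Id2+/+ and 197 and 193 in Id2Δ/Δ libraries, while the MXD sum stays between 59.0 and 67.2 with a smaller Mxd1 and a larger Mxd4 segment in Id2Δ/Δ.

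The ratio of activator to MXD RNA, *Myc* and *Mycn* over the 4 MXD genes, was 2.56 and 2.82 in *Id2*+/+ and 2.948 and 2.996 in *Id2*Δ/Δ HSCs. The 2 genotypes did not overlap, but the *Id2*+/+ libraries differed from each other by more than the distance between the genotypes' nearest libraries. With the length of all exons in place of the longest transcript the ratio was 3.23, 3.56, 3.76 and 3.82, in the same order. The proteins were not measured.

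Of *Mnt* and *Mga*, the large constitutive antagonists, *Mnt* overlapped between genotypes and *Mga* was lower in both *Id2*Δ/Δ libraries. *Mnt* (ENSMUSG00000000282.12, chr11:74830920-74845725, + strand), the most widely expressed repressor of the network, was at 4.89 and 4.77 log2 CPM in *Id2*+/+ and at 5.21 and 4.65 in *Id2*Δ/Δ libraries, which fell on both sides of the *Id2*+/+ values. Its log2 difference was 0.10 (SE 0.23, limma, adjusted p = 0.955), and -0.18 without *Id2*Δ/Δ replicate 1. *Mga* (ENSMUSG00000033943.15, chr2:119897228-119969581, + strand) was at 7.98 and 8.06 log2 CPM in *Id2*+/+ and at 7.73 and 7.66 in *Id2*Δ/Δ libraries, without overlap. It was 1.25-fold higher in *Id2*+/+ than in *Id2*Δ/Δ HSCs (log2 difference -0.33, SE 0.11, limma, unadjusted p = 0.0188, adjusted p = 0.910).

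The *Mga* difference had the narrowest range of the 10 when 1 library was left out, -0.36 to -0.29. However, the gene has the longest transcript of the network, 13931 bases, and long transcripts were lower in *Id2*Δ/Δ HSCs across all genes. After each library was corrected for transcript length the *Mga* difference was -0.15 (limma, unadjusted p = 0.200). The other 9 members, with longest transcripts of at most 5036 bases, moved by at most 0.04 on the log2 scale under that correction, *Mxd1* from -0.62 to -0.59 and *Mxd4* from 0.41 to 0.44.

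*Mlx* (ENSMUSG00000017801.15, chr11:101087277-101092207, + strand), the MAX relative, had overlapping libraries. It was at 5.16 and 5.21 log2 CPM in *Id2*+/+ and at 5.32 and 5.14 in *Id2*Δ/Δ libraries, a log2 difference of 0.04 (95% interval -0.35 to 0.44, limma, adjusted p = 0.973). The gene shares 385 bases on the opposite strand with *Psmc3ip*. Of its partners, *Mlxip* (MondoA) was at 6.55, 6.61, 6.03 and 6.65 log2 CPM (log2 difference -0.24, limma, adjusted p = 0.910), with replicate 1 of *Id2*Δ/Δ apart from the other libraries. *Mlxipl* (ChREBP) and *Mycl*, another MYC gene, were not analysed here.

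Per kb of the longest transcript, the order in *Id2*+/+ HSCs was *Mycn*, *Myc*, *Max*, *Mga*, *Mlx*, *Mxd4*, *Mxd1*, *Mxi1*, *Mxd3* and *Mnt*, from 86.8 down to 6.20 CPM per kb. The *Id2*+/+ libraries of neighbours overlapped between *Mycn* and *Myc*, along the run from *Mga* to *Mxd1*, and between *Mxi1* and *Mxd3*. They were apart between *Myc* and *Max*, *Max* and *Mga*, *Mxd1* and *Mxi1*, and *Mxd3* and *Mnt*. With the length of all exons, *Myc* and *Mycn* were still first and *Mnt* last, while *Max* (13.1 CPM per kb) came after *Mga* (16.9), so the order in the middle depends on the length used.

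Over the 10 members, 0 passed an adjusted p of 0.05 in limma, as did 0 of all 15895 genes tested (0.0%), where the smallest adjusted p was 0.910. At an unadjusted p under 0.05 there were 3 members, 1 higher (*Mxd4*) and 2 lower (*Mxd1* and *Mga*). The share over all genes was 4.67%, or 1.72% higher and 2.95% lower. Libraries did not overlap between genotypes for 5 members, 3 higher and 2 lower, against 34.8% of all genes, 19.0% higher and 15.8% lower. The mean was higher in *Id2*Δ/Δ HSCs for 8 members, against 51.7% of all genes, and the members' median log2 difference was 0.15 against 0.01 over all genes tested. The members were few, and no test of the group was made.

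The *Id2*Δ/Δ libraries differed from each other in several members. For *Mxd1*, *Max*, *Mnt* and *Mxd3* the 2 libraries lay 0.65, 0.57, 0.56 and 0.40 apart on the log2 scale. The *Id2*Δ/Δ libraries lay farther apart than the *Id2*+/+ libraries for 6 of the 10 members, against 63.2% of all genes. *Myc*, *Mycn*, *Mxd4* and *Mxi1* were closer together in *Id2*Δ/Δ than in *Id2*+/+ HSCs.

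**Figure D3:**
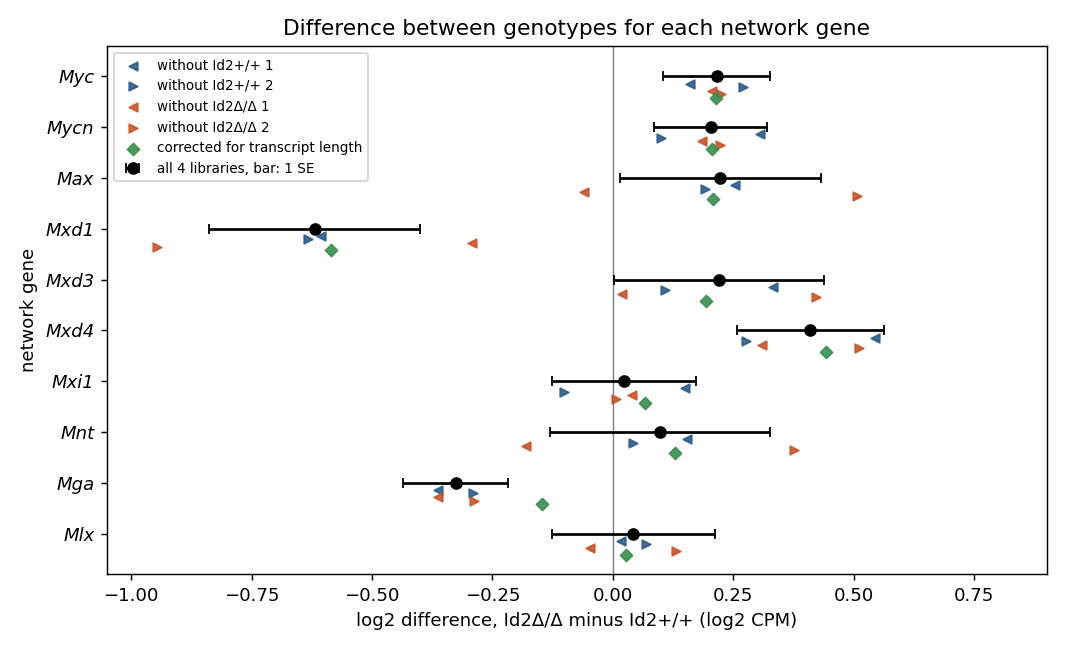
Log2 difference between Id2Δ/Δ and Id2+/+ HSCs (horizontal axis) for each network gene (vertical axis); black points with bars of 1 SE use all 4 libraries, triangles leave out 1 library (blue an Id2+/+, orange an Id2Δ/Δ library) and green diamonds are corrected for transcript length. The Max, Mnt and Mlx triangles without Id2Δ/Δ replicate 1 and the Mxi1 triangle without Id2+/+ replicate 2 cross 0, and the Mga diamond moves from -0.33 to -0.15.

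No gene in the lists that follow, other members of the pathway and its known targets, passed an adjusted p of 0.05 in limma. Single genes at an unadjusted p under 0.05 are named below, and 4.67% of all genes tested were under it too. The cofactors of MYC showed no common direction. Of 20 such cofactors (the TRRAP and TIP60 acetyltransferase complex, CREBBP and EP300, the P-TEFb kinase, the PAF complex, WDR5 and others), 9 had higher and 11 had lower means after *Id2* loss, and the median log2 difference was -0.01. The gene with the smallest p was *Kat5*, the TIP60 acetyltransferase, at 5.82 and 5.70 log2 CPM against 6.24 and 6.04 (log2 difference 0.37, limma, unadjusted p = 0.0417, adjusted p = 0.910). *Hcfc1*, a cofactor that binds MYC directly, had libraries apart the other way, at 8.03 and 8.01 against 7.70 and 7.83. The abundant *Crebbp* and *Supt5* differed by -0.05 and 0.08.

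The corepressors of MXD and MNT were measured in full, 18 of 18, and 11 were higher and 7 lower, with a median of 0.09. *Sap130*, a subunit of the SIN3 complex, was the single gene at an unadjusted p under 0.05, at 4.92 and 4.98 log2 CPM against 4.53 and 4.47 (log2 difference -0.45, limma, unadjusted p = 0.0400, adjusted p = 0.910). The histone-binding *Rbbp7* and *Rbbp4* and the scaffold *Ncor1* were the most abundant and differed by -0.04, 0.17 and -0.12. Of the 10 other PRC1.6 subunits, the partners of *Mga*, 6 were higher and 4 lower, with a median of 0.03 and a range of -0.21 (*Cbx3*, 6.15 and 5.98 against 5.78 and 5.93 log2 CPM) to 0.14 (*Tfdp1*). The abundant *Wdr5* and *E2f6* differed by 0.07 and -0.10. None of these subunits had an unadjusted p under 0.05 in limma.

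Genes that control the stability of the MYC protein, 17 in all, were 8 higher and 9 lower, with a median of -0.01. *Aurka*, a mitotic kinase that shields MYCN from its ubiquitin ligase, was at 4.09 and 4.80 log2 CPM in *Id2*+/+ and at 5.05 and 5.21 in *Id2*Δ/Δ libraries, with libraries apart (log2 difference 0.69, SE 0.26, limma, unadjusted p = 0.0312, adjusted p = 0.910). The 2 *Id2*+/+ libraries were farther apart than the genotypes' nearest libraries. The ubiquitin ligase genes *Huwe1* and *Trpc4ap* and the chaperone-linked ligase *Stub1* differed by -0.05, -0.13 and 0.10.

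Known targets of MYC were mostly a little higher in *Id2*Δ/Δ HSCs. Of 80 targets tested, without *Id2*, which is itself a target, 55 were higher and 25 lower (68.8% higher, against 51.7% of all genes), with a median log2 difference of 0.09 against 0.01. The genes are not independent of each other, and no test of the list was made. At an unadjusted p under 0.05 there were 6 targets, 5 higher and 1 lower, or 7.5% against 4.67% of all genes. Libraries were apart for 24 targets, 30.0% against 34.8% of all genes, a smaller share than over all genes, and 19 of them were higher and 5 lower. The median lay between 0.04 and 0.10 under all the alternatives tried, those that leave out a library or correct for transcript length (0.09) included.

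Among the targets for ribosome biogenesis, 25 of 38 tested were higher, with a median of 0.08. *Mrto4*, a ribosome assembly factor, was at 5.23 and 5.43 log2 CPM against 5.81 and 5.79 (log2 difference 0.47, limma, unadjusted p = 0.0199, adjusted p = 0.910). The abundant nucleolar genes *Npm1*, *Ncl* and *Nop56* overlapped between genotypes and differed by 0.14, 0.06 and 0.01. E-boxes stood in the promoters of 8 of the 33 ribosome biogenesis genes with an entry, 24.2%.

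Of 27 metabolic targets, 21 were higher, with a median of 0.09. *Tfrc*, the transferrin receptor, was at 5.27 and 5.24 log2 CPM in *Id2*+/+ and at 5.77 and 5.79 in *Id2*Δ/Δ libraries (log2 difference 0.53, SE 0.15, limma, unadjusted p = 0.00965, adjusted p = 0.910). It is also a marker of erythroid cells, and of the 8 erythroid markers tested, *Tfrc* itself included, 4 were higher and 4 lower. E-boxes stood in 4 of 22 promoters of this list (18.2%) and in 3 of 14 of the cell cycle list (21.4%). *Ldha* (lactate dehydrogenase), *Slc1a5* (a glutamine transporter) and *Impdh2* (an enzyme of guanine nucleotide synthesis) were the most abundant and differed by 0.08, 0.03 and 0.11.

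The cell cycle targets, 15 without *Id2*, were 9 higher and 6 lower, with a median of 0.06. *Cdk4*, whose E-boxes are shown above, was at 8.61 and 8.61 log2 CPM against 8.73 and 8.61, and *Ccnd2* and *Mcm5* differed by 0.09 and -0.01. Of the 15, *E2f2* and *Cks1b* were at an unadjusted p under 0.05 in limma, against 4.67% of all genes. *E2f2* was at 3.32 and 2.81 against 3.69 and 4.05 log2 CPM (limma, unadjusted p = 0.0289, adjusted p = 0.910). *Cks1b* was at 5.80 and 5.85 against 6.21 and 6.15 (limma, unadjusted p = 0.0363, adjusted p = 0.910). The median of the 15 turned to -0.11 without *Id2*+/+ replicate 1 and to -0.14 without *Id2*Δ/Δ replicate 2.

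Of 12 tested genes that MYC is known to repress, 3 were higher and 9 lower (25% higher, against 51.7% of all genes), with a median of -0.09. The 9 include *Ndrg2* and *Thbs1*, which differed by only -0.00045 and -0.02. None was at an unadjusted p under 0.05 in limma. Libraries were apart for 2, both lower, against 34.8% of all genes apart in either direction, and no test of the list was made. The cell cycle inhibitor *Cdkn1c* (p57) was at 5.35 and 5.66 log2 CPM against 4.97 and 5.43, which overlap. *Pdgfrb* was at 4.27 and 4.32 against 3.89 and 3.68 (log2 difference -0.51, limma, unadjusted p = 0.0519, adjusted p = 0.910), and *Hbp1* and *Ndrg1* differed by 0.15 and -0.10. The median was 0.00 without *Id2*Δ/Δ replicate 1. Of 5 targets of MLX and MondoA, 1 was higher and 4 lower, with a median of -0.12 that was -0.01 after the correction for transcript length. *Txnip*, their best-known target, was at 9.40, 9.27, 9.36 and 9.33 log2 CPM, level in all libraries. *Arrdc4* was at 6.50, 6.45, 5.94 and 6.97, with the *Id2*Δ/Δ libraries on either side of the *Id2*+/+ values. *Fasn* differed by -0.12, and *Acaca* had libraries apart, at 5.70 and 5.76 against 5.58 and 5.25 log2 CPM.

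**Figure D4:**
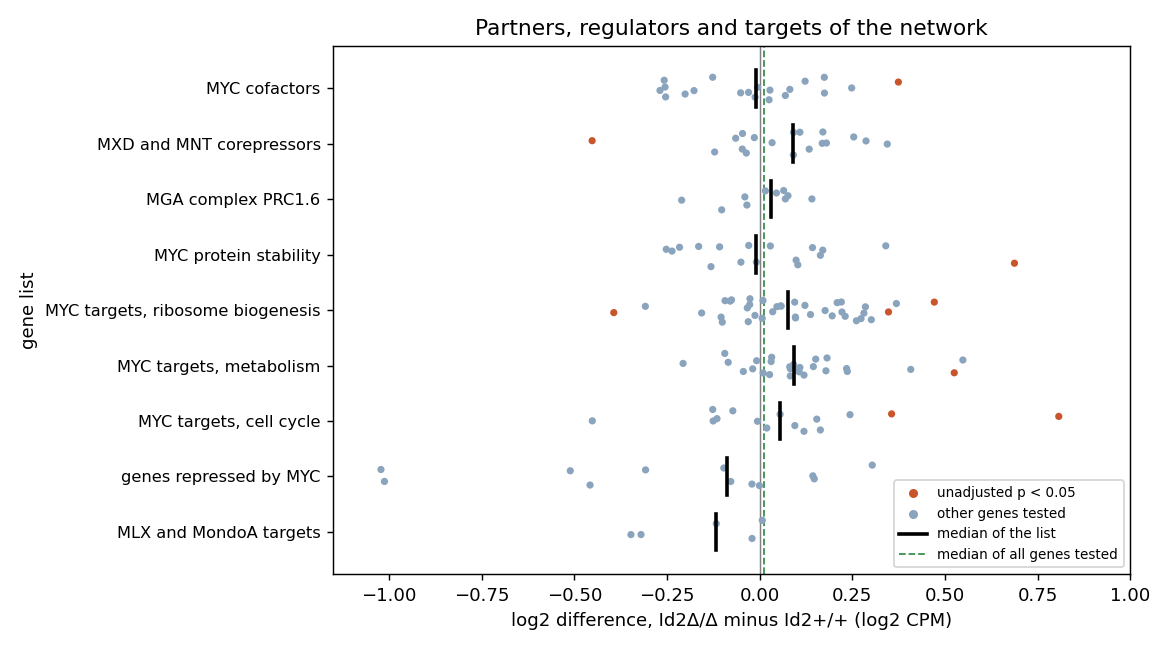
Log2 difference between Id2Δ/Δ and Id2+/+ HSCs (horizontal axis) for genes linked to the network, grouped by list (vertical axis); each point is a gene, orange at an unadjusted limma p under 0.05, with the list's median as a black bar and the median of all genes tested (0.01) as a dashed line. Id2 is left out of the cell cycle list; the medians lie between -0.12 and 0.09, and the orange points are scattered over 6 lists.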

How the data were processed

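RNA-Seq was performed by the authors on 4 HSC libraries, 2 per genotype. The deposited values are log2 CPM of 19354 genes, a unit read from the values, and were quantile-normalized by the authors, since sorted columns differ by less than 0.1 in 88.4% of ranks. The submitters' processing notes name CASAVA 1.8.4, Trimmomatic 0.30, TopHat2 2.0.8, RSEM and STAR, and the builds mm9 and NCBIM37. Of the gene identifiers, 99.7% are in GENCODE M21 (GRCm38), 82.0% with the same version, so the build behind the values is not settled and coordinates were matched by identifier. Quantile normalization removes differences in overall amount, and multi-mapped or antisense reads may be shared between genes.

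The 15895 genes whose mean reached 1 CPM entered limma (version 3.58.1, R 4.3.3; lmFit, then eBayes with an intensity trend), with genotype as the only term, two-sided, with Benjamini-Hochberg adjustment and a threshold of 0.05. Intervals are 95% and cover the spread between libraries. Depths were estimated from the spacing of low values (log2 CPM 1 to 5), and reads follow from CPM and depth, with counting error only. The transcript-length correction fitted a spline with 5 degrees of freedom per library. The code was tested on simulated data. The network genes and all lists were chosen with earlier results of these data known. All 10 network genes are named. Of each list, the marker lists apart, the 3 tested genes with the highest mean and the gene with the smallest p are named. A few others named were chosen after their values were seen. Alternatives were no filter, a minimum mean of 10 CPM, pseudocounts of 0.5 and 1 CPM, median-ratio rescaling, no intensity trend, a replicate block, the length correction and leaving out each library.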

Additional observations from a re-analysis of the deposited data

How the results depend on the processing

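The limits are those of 2 libraries per genotype. All 10 network genes kept their direction under the filters, pseudocounts, rescaling, trend, block and length settings. Leaving out 1 library turned *Max* (-0.061 to 0.51 on the log2 scale), *Mnt* (-0.18 to 0.38), *Mlx* (-0.047 to 0.13) and *Mxi1* (-0.10 to 0.15), and the cause was not tested. Members at an unadjusted p under 0.05, 3 in all, numbered 0 without the intensity trend and, with 1 library left out, 0 (*Id2*+/+ replicate 2) to 4 (*Id2*Δ/Δ replicate 2, with *Max* added), and members with libraries apart, 5 in all, numbered 6 to 9, as 1 library against 2 has fewer ways to overlap. Genes at an unadjusted p under 0.05, 742 in all, ranged from 196 (*Id2*+/+ replicate 1 left out) to 2516 (*Id2*Δ/Δ replicate 2 left out). For members with libraries apart, no share over all genes is given with 1 library left out. The 34.8% of all genes belongs to the comparison with 2 libraries per genotype. The 6 to 9 members therefore have no background to be read against, and nothing is concluded from them. The libraries share replicate numbers, but their deviations correlated at 0.06 only and nothing ties a number to an experiment. With the number as a replicate block, 1 gene was called in place of 0, C130089K02Rik (limma, adjusted p = 0.0189), and also 1, the same gene, when the block was combined with the length correction, an alternative chosen after seeing the data. No network gene was called in either. Over the alternatives, 113 of the members' differences kept both their direction and their side of an unadjusted p of 0.05, 12 lost that p, 1 gained it and 4, those named above, changed sign. At the fewest reads, 357, counting error had an SD of 0.076 on the log2 scale.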
